A study of Mus musculus with 12 samples.

Results

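The genes Tubb3, Dcx, Map2, Stmn1, Gfap, S100b, Aldh1l1, Olig1, Olig2 and Slc1a3 are used as markers of neurons, of glia or of the precursors of both. These 10 genes were taken by symbol from the gene annotation of the cytosine lists of 12 libraries made by RNA bisulfite sequencing (RNA BS-seq) of neural stem cells (NSCs) from mice, in which 15488 genes were measured in at least 1 library. A gene counts as measured in a library where at least 1 background cytosine, one read as T in nearly all reads, was listed for it. Of the 10 genes, 9 were measured in at least 1 library, and S100b had no listed cytosine in any. 7 genes had enough background cytosines in every library to be tested, among 8684 genes tested in all, and Dcx, Gfap and S100b did not.

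The NSCs came from the subventricular zone of male wild-type C57BL/6 mice aged 6 to 8 weeks and grew as a monolayer with EGF and bFGF, growth factors that keep NSCs dividing. For 4 days the medium held a low (LF, 1.5 μM), medium (MF, 10 μM) or high (HF, 80 μM) concentration of folic acid. BS-seq was done on poly(A) RNA of whole cells (total mRNA: LF, MF, HF) and on poly(A) RNA from the polysome fractions of a sucrose gradient (polysome mRNA: pLF, pMF, pHF), with 2 biological replicates of each of the 6 groups. No differentiated culture was included, and each library pools all cells of a culture, so that a change in the number of cells of a type and a change in RNA per cell cannot be told apart.

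NSCs of the subventricular zone can give rise to neurons, astrocytes and oligodendrocytes. Tubb3 (class III beta-tubulin), Dcx (doublecortin) and Map2 are microtubule proteins of young and mature neurons, and Stmn1 (stathmin) binds free tubulin and is abundant in dividing progenitors as well as in neurons. Gfap, S100b, Aldh1l1 and Slc1a3 (the glutamate transporter GLAST) are astrocyte markers, of which Gfap, Aldh1l1 and Slc1a3 are also made by radial glia-like stem cells. Olig1 and Olig2 are neighbouring genes for transcription factors that direct the oligodendrocyte lineage and that are also present in progenitors dividing in response to EGF.

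Bisulfite converts cytosine to uracil, and sequencing then gives T, but it leaves 5-methylcytosine (m5C), which still gives C. Each list gives, for a cytosine, its coverage (reads over the position) and its level (the fraction of reads in which it stayed C), and it holds only cytosines with at least 1 unconverted read. Nearly all listed cytosines are background, with a level under 0.05, and their coverage was used as a measure of the mRNA at that position. The scaled level of a gene is the median coverage of its background cytosines divided by the median over the 8684 genes tested, taken in the same library. A scaled level of 1 is thus that of the median gene among those tested, called the median gene below. The scaled level is not set against all genes measured in a library. It is a value per position and does not grow with the length of the gene.

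The libraries held between 714387 and 1921717 background cytosines, with a median coverage of 390 to 1079. The libraries labelled HF stood apart from the other total mRNA libraries. Across the genes tested, their scaled log2 levels correlated with those of LF and MF at r = 0.7197 to 0.7557, against 0.8994 to 0.9111 among the 4 LF and MF libraries, and they listed 27353 and 21195 cytosines with a variant base, against 6134 to 7899. Removing reads can only lower the coverage of a position, and in the other 10 libraries no position of the published list of m5C sites had less coverage in the deposited lists than in that list. In the libraries labelled HF, 41 of 93 and 44 of 88 of its positions had less, and 1 and 0 had the same. The label of these libraries is therefore in doubt, and results that rest on them hold for the deposited files and not for a folic acid concentration. Replicate 2 of pHF listed 18155 variant cytosines against 4734 to 11495 in the other polysome libraries and had the median coverage of 1079 against 390 to 461, while its scaled log2 levels correlated with theirs at r = 0.8058 to 0.8587, against 0.8065 to 0.8491 among them. It stood closer to total mRNA than they did, with r = 0.777 to 0.7908 to the LF and MF libraries against 0.6764 to 0.7364, and with 22.4% of exonic cytosines within 1000 nt of the 3′ end in genes with long exon sequence, against 26.7% to 28.4%. The NSC markers Nes (nestin; scaled level 5.56 to 6.17 in LF and MF), Fabp7 (17.5 to 32.7) and Vim (68.3 to 77.2) were abundant, while Rbfox3, Snap25 and Syt1 (mature neurons), Sox10, Mog and Mag (oligodendrocyte lineage) and Aif1, Csf1r and P2ry12 (microglia) had no background cytosine in any library. Other genes of the same marker lists were measured, 20 of 30 neuronal, 8 of 18 oligodendroglial and 3 of 12 microglia genes in at least 1 library. The summed scaled levels of these lists in LF and MF were 20.97 to 23.9, 5.96 to 6.19 and 0.780 to 1.32.

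In total mRNA of LF and MF, the glial transcription factors and stathmin were far above the median gene, and the neuronal tubulin and Map2 were near it. Among all measured genes, Tubb3 lay between the 52.4 and 64.4 percentiles and Map2 between the 47.1 and 75.6 percentiles. Olig1 had a scaled level of 20.7 ± 0.411 (SD, n = 4), between the 99.47 and 99.53 percentiles of all measured genes. Stmn1 followed with 8.24 ± 1.75, Slc1a3 with 4.21 ± 0.385, Olig2 with 3.52 ± 0.314, Aldh1l1 with 1.28 ± 0.170, Map2 with 0.975 ± 0.386 and Tubb3 with 0.809 ± 0.136 (SD, n = 4 each). The ranges of Slc1a3 and Olig2 overlapped, but Slc1a3 was the higher in each of the 4 libraries. It was at 3.97, 3.83, 4.68 and 4.35, and Olig2 at 3.58, 3.28, 3.94 and 3.27 in the same libraries. The range of Map2 overlapped with those of Aldh1l1 and Tubb3, and its order with them changed between libraries, so that these neighbours did not differ beyond their spread. Tubb3 belongs to a family of tubulin genes with nearly the same coding sequence, and its coverage rests on uniquely aligned reads.

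Dcx and Gfap were near the limit of measurement. Dcx had 3 to 8 background cytosines in each total mRNA library, with scaled levels of 0.0611 to 0.0896 in LF and MF and of 0.283 and 0.280 in the libraries labelled HF, and 1 background cytosine in pLF replicate 2 and in pMF replicate 2, and it had none in the other 4 polysome libraries. Gfap had 1 to 5 background cytosines in 5 of the 12 libraries and none in the other 7. Cytosines with a higher level were listed in some of these, 2 for Dcx in pMF replicate 1 and 1 or 2 for Gfap in MF replicate 1, pMF replicate 2 and both pHF libraries, and entered no level. Since a cytosine needs an unconverted read to be listed and 1 such read gives a level under 0.05 only from a coverage of 21 upwards, a gene with no background cytosine may still be expressed at a low level.

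**Figure D1:**
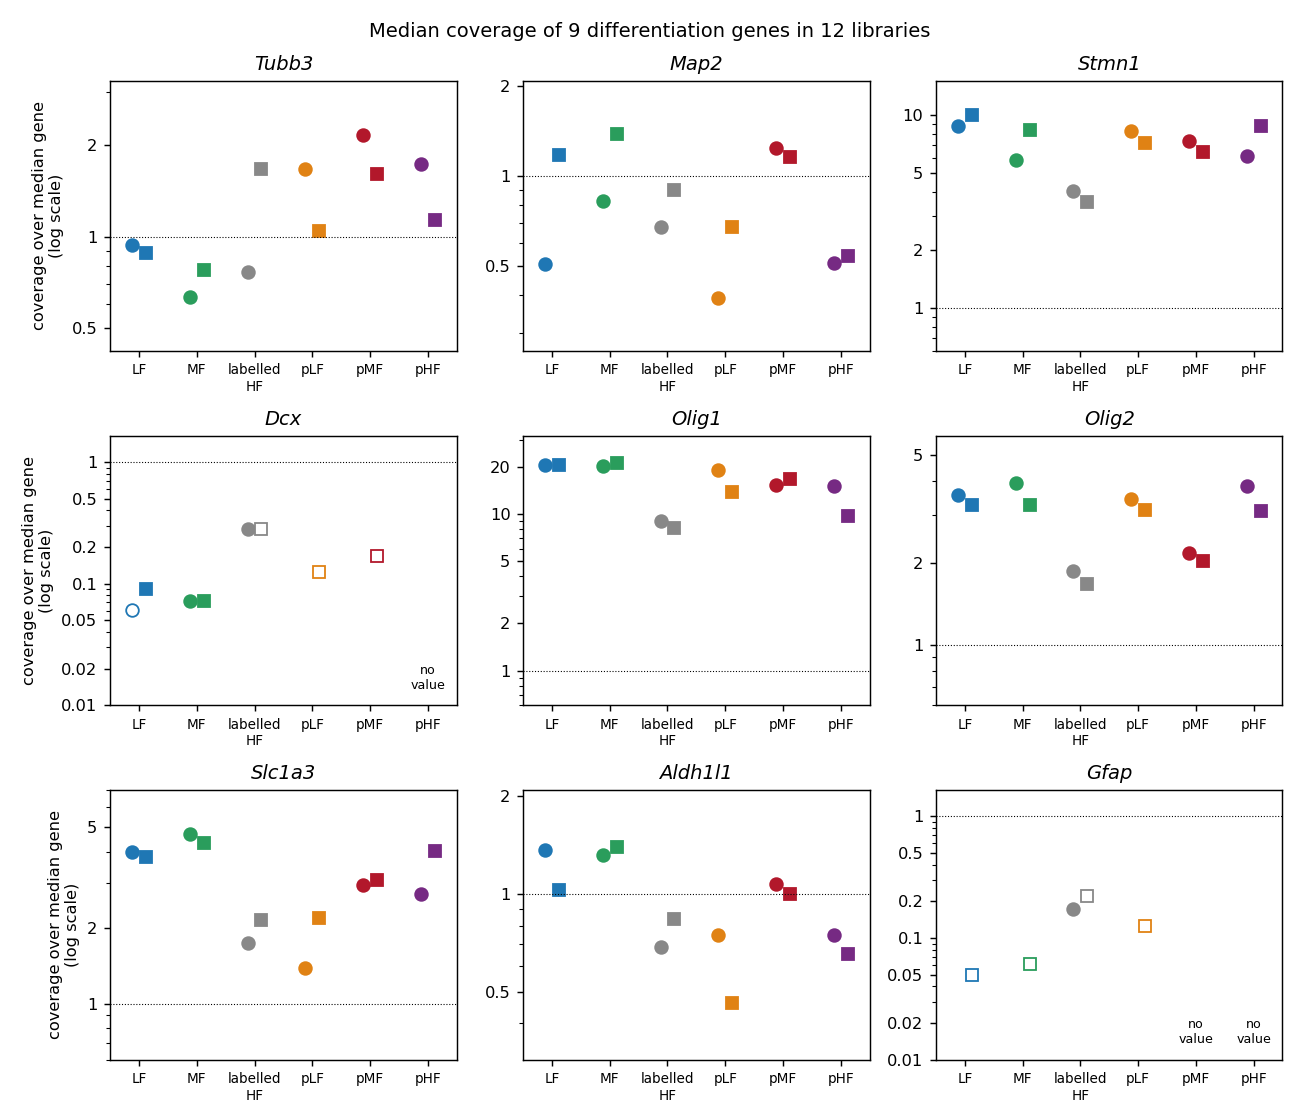
Scaled level (median coverage of background cytosines over the library's median gene, log axis) of the 9 measured genes in each of the 12 libraries; circles are replicate 1 and squares are replicate 2, and hollow markers rest on fewer than 5 cytosines. Olig1 sits between 20.2 and 21.2 in LF and MF and at 9.07 and 8.20 in the libraries labelled HF, while Dcx and Gfap stay under 0.3 wherever they have a value.

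Few cytosines in these genes had the level of an m5C candidate. A cytosine was called where 20 reads or more covered it, 6 or more of them were unconverted and the level was no lower than 0.1, and 20 such cytosines in 5 genes (Olig2, Stmn1, Map2, Slc1a3 and Tubb3) passed in at least 1 library. The 4 sites that passed in both replicates of a group are shown with 10 bases on either side on the strand of the gene (GRCm38), the called cytosine in capitals:
Olig2, chromosome 16, position 91226572, coding sequence in exon 2: ctacgaggggCcatgggcgcg
Olig2, chromosome 16, position 91228450, 3′UTR: acacgaggggCaaaccccttc
Olig2, chromosome 16, position 91228562, 3′UTR: gtgtatctatCacctgtttta
Stmn1, chromosome 4, position 134473720, 3′UTR: tatgtggcggCttcttccaac
Of these sites, 3 passed in both libraries labelled HF and 1 in both pLF libraries. The libraries labelled HF had more such cytosines over the whole transcriptome, with 6379 and 5186 (0.312% and 0.292% of listed cytosines) against 2154 to 2646 in LF and MF (0.108% to 0.146%). The highest share was in pHF replicate 2 (0.718%), and pLF had 0.289% and 0.247%. In the 10 genes, 16 of 2669 and 3 of 2427 listed cytosines passed in the libraries labelled HF, 2 of 1253 in pHF replicate 2, 1 in each pLF library and 1 in MF replicate 1.

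At the coding site of Olig2, a transcription factor of the oligodendrocyte lineage, 51 of 232 reads (22.0%, 95% Wilson interval 17.1 to 27.7%) and 23 of 146 reads (15.8%, 10.7 to 22.5%) were unconverted in the libraries labelled HF. The same position had 1 unconverted read of 527 in LF replicate 2 and 1 of 300 in pMF replicate 2 and was not listed elsewhere. The first 3′UTR site of Olig2 had levels of 22.2% (12.5 to 36.3%) and 27.5% (16.1 to 42.8%) in the libraries labelled HF at a coverage of only 45 and 40, and of at most 1.24% in the 5 other libraries that listed it. The second reached 19.4% (9.75 to 35.0%) and 11.3% (5.58 to 21.5%) in pLF, with 7 unconverted reads of 36 and of 62. Its level was 11.8% (4.67 to 26.6%) in pHF replicate 1 and 3.03% and 8.00% in pMF, and 1 read of 10 was unconverted in LF replicate 2, so that the intervals of these libraries overlap. The Stmn1 site had levels of 27.4% (17.9 to 39.6%) and 25% (12.7 to 43.4%) in the libraries labelled HF, from 17 of 62 and 7 of 28 reads, and of at most 0.831% in the 8 other libraries that listed it. In labelled-HF replicate 1 this cytosine was the first of 11 called between positions 134473720 and 134473772, each with 6 to 17 unconverted reads. Neighbouring cytosines read in the same molecules are not independent, and the intervals cover counting error only, since reads without molecular identifiers are not independent molecules. Of the 20 cytosines, 7 had a coverage of 50 or more and 5 a level of 0.2 or more. The levels come before the filters that the authors applied to reads and sites.

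The comparison of polysome with total mRNA asks which mRNAs were over- or under-represented in the pooled polysome fractions, which leave out mRNAs with few ribosomes. In LF and MF, Tubb3 was higher and Slc1a3 was lower in polysome mRNA. Tubb3 had scaled levels of 0.940, 0.885, 0.632 and 0.779 in LF replicates 1 and 2 and MF replicates 1 and 2, and of 1.67, 1.04, 2.17 and 1.61 in the pLF and pMF libraries in the same order. The lowest polysome value lay above the highest total mRNA value, and the difference was 0.97 on the log2 scale (SE 0.32, limma adjusted p = 0.0427), or 1.96-fold. Slc1a3, the glutamate transporter of astrocytes and radial glia, had scaled levels of 3.97, 3.83, 4.68 and 4.35 in LF and MF and of 1.38, 2.19, 2.96 and 3.10 in pLF and pMF. All 4 polysome values were under the lowest total value, and Slc1a3 fell by 0.87 on the log2 scale (SE 0.21, limma adjusted p = 0.0131), or 1.83-fold. Exact two-sided permutation of the libraries gave p = 0.0286 for each gene, the smallest value that 4 libraries against 4 allow.

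These were 2 of the 7 genes tested, beside 29.4% of all genes tested in this comparison, of which 17.1% of the genes tested were higher and 12.3% lower in polysome mRNA. Of the other 5, the astrocyte enzyme Aldh1l1 differed by -0.70 (limma adjusted p = 0.0652), Olig2 by -0.41 (0.0961), Olig1 by -0.36 (0.131), Map2 by -0.21 (0.676) and Stmn1 by -0.15 (0.559) on the log2 scale, with 95% intervals that reach from -1.27 to -0.13 for Aldh1l1, from -0.80 to -0.03 for Olig2, from -0.73 to 0.01 for Olig1, from -0.99 to 0.56 for Map2 and from -0.56 to 0.25 for Stmn1. The values of Olig1 did not overlap, with 13.9 to 19.3 in polysome and 20.2 to 21.2 in total mRNA, as for 14.8% of all genes in this direction and 21.6% in the direction of Tubb3. The median over the 7 genes was -0.36, beside 0.06 over all genes.

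The calls depended on the scaling and on single libraries. The size of a difference depended on the setting too. Over 19 alternatives, not counting those that left out 1 library, Slc1a3 differed by -3.33 to -0.32 on the log2 scale. With TMM factors, which place the median of all genes at -0.11 and make 1161 of 2573 called genes higher in place of 1483 of 2553, Tubb3 lost its call (0.81, limma adjusted p = 0.0774) and Aldh1l1 (-0.86), Olig1 (-0.52) and Olig2 (-0.58) gained one. Tubb3 also lost it without either LF replicate, either MF replicate, pLF replicate 1 or either pMF replicate (limma adjusted p = 0.0586 to 0.126), and with the replicate number as a block (0.0566). Leaving out 1 library ended the call of Slc1a3 only for MF replicate 1 (limma adjusted p = 0.0523).

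**Figure D2:**
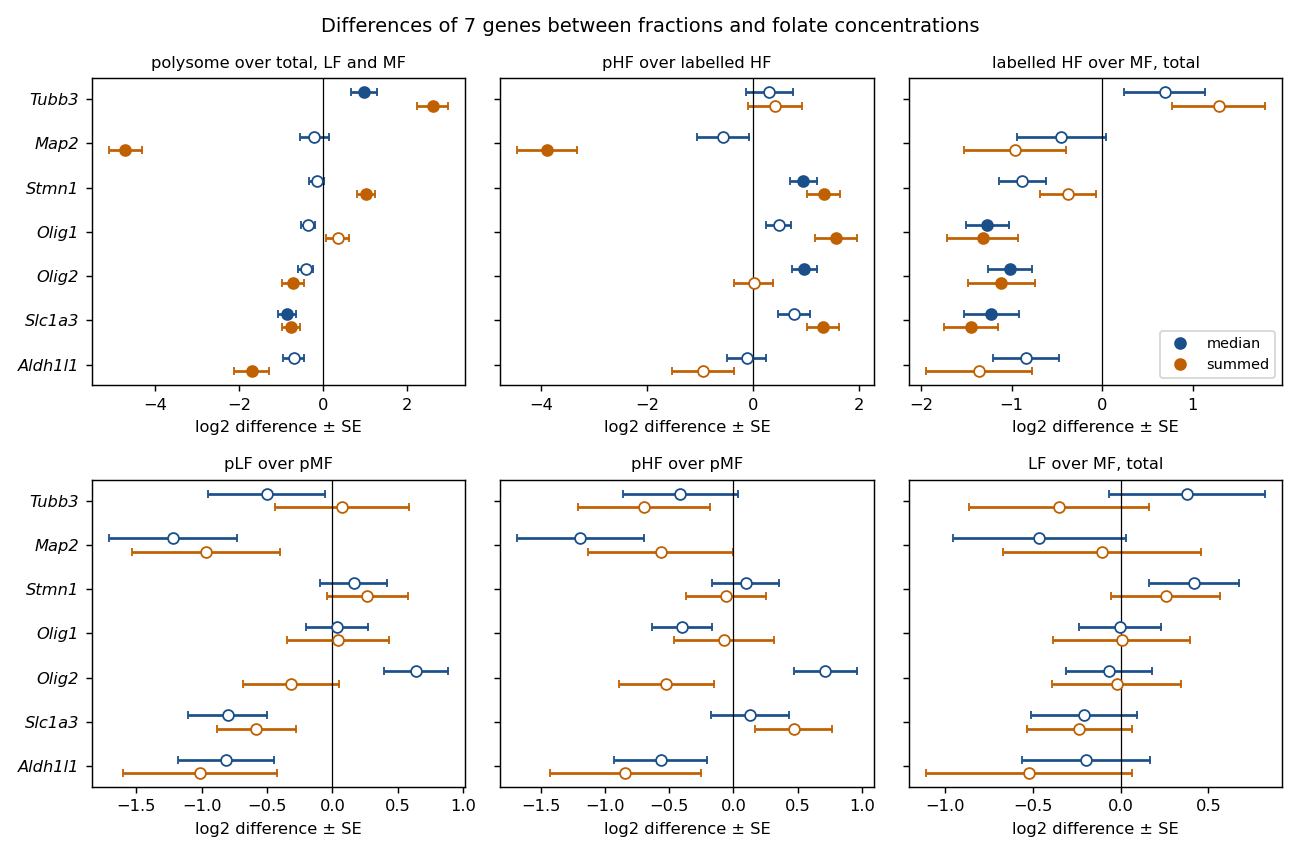
Log2 differences of the 7 genes tested in 6 comparisons (each panel has its own x axis), with bars of 1 SE, from median coverage (blue) and from coverage summed over the background cytosines of a gene (orange); filled markers passed an adjusted p of 0.05. In polysome over total mRNA of LF and MF, Map2 lies at -0.21 by median and -4.71 by summed coverage and Stmn1 at -0.15 and 1.03, and no marker is filled in the 3 panels that compare pLF with pMF, pHF with pMF and LF with MF.

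The median describes only the cytosines that were listed, and polysome libraries listed fewer cytosines in 5 of the 7 genes tested without overlap between the groups, as for 26.6% of all genes. Map2 had 458 to 520 background cytosines in LF and MF and 14 to 61 in pLF and pMF. Aldh1l1 had 160 to 312 against 27 to 123, Olig2 465 to 493 against 225 to 333, Slc1a3 616 to 671 against 308 to 593, and Olig1 603 to 639 against 518 to 582. Those of Stmn1 (171 to 253 against 174 to 202) and Tubb3 (46 to 121 against 74 to 224) overlapped. Dcx, which was not tested, had 3 to 8 against 0 to 1.

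Coverage summed over the background cytosines of a gene, an alternative chosen after seeing the data, takes these numbers in. By this measure, 6 of the 7 genes were called, beside 58.9% of all genes. Map2 fell by 4.71 on the log2 scale (SE 0.40) and Aldh1l1 by 1.70 (SE 0.41), while Tubb3 rose by 2.61 (SE 0.36). Slc1a3 fell by 0.77 (SE 0.21), Olig2 fell by 0.73 (SE 0.26) and Stmn1, which by median coverage differed by -0.15, rose by 1.03 (SE 0.22), with limma adjusted p of at most 0.0229 for the 6 genes. Olig1 differed by 0.35 (SE 0.28, limma adjusted p = 0.291). The direction for Tubb3, Map2, Aldh1l1, Olig2 and Slc1a3 was the same by both measures. Since a cytosine needs an unconverted read to be listed, the number listed itself rises with coverage. A difference in summed coverage can therefore overstate the difference in mRNA. The sums were scaled to that of the median gene, which was 70459 to 92492.5 in LF and MF and 22926.5 to 63982 in pLF and pMF. That scaling enters the rise of Stmn1, whose own number of listed cytosines overlapped between the fractions.

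**Figure D3:**
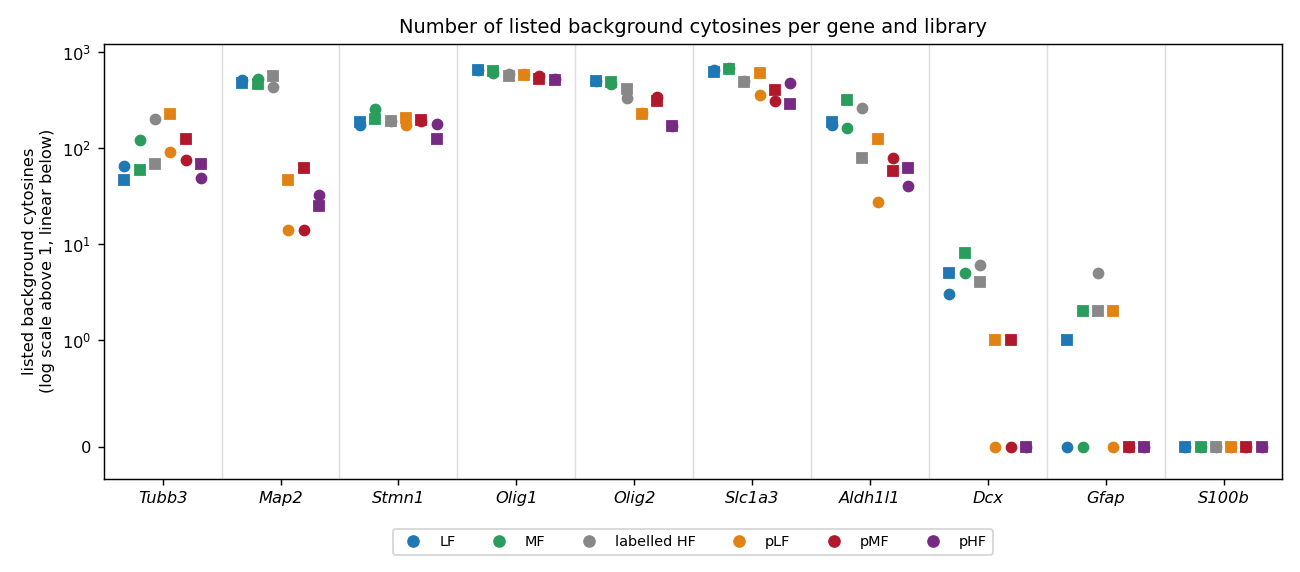
Number of listed background cytosines of each of the 10 genes in the 12 libraries (log axis above 1, linear below), by group; circles are replicate 1 and squares are replicate 2. Map2 drops from 430 or more in every total mRNA library to 61 or fewer in every polysome library, while Olig1 keeps over 500 in all 12.

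The difference between the fractions varied along the genes, as shown by coverage in windows of 500 nt counted from the 3′ end of the merged exons. Slc1a3 (chr15:8634124-8710764, minus strand) had scaled coverage of 1.98 to 4.72 in its last 1000 nt in LF and MF and of 0.165 to 0.590 in pLF and pMF. Between 2000 and 2499 nt from the 3′ end, in contrast, it had 2.65 to 3.64 in total and 4.00 to 10.5 in polysome mRNA. Lower polysome coverage was not limited to the 3′ end, since it was also 4.13 to 6.57 against 1.17 to 2.78 at 1500 to 1999 nt and 6.22 to 7.21 against 0.801 to 2.06 at 6500 to 6999 nt. For Olig2 (chr16:91225457-91228677, plus strand) the last 500 nt gave 1.57 to 2.77 in total and 0.414 to 0.662 in polysome mRNA, while 1500 to 1999 nt from the end the ranges overlapped, with 5.89 to 6.34 and 5.67 to 8.13.

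Stmn1 (chr4:134468320-134473843, plus strand) was lower in polysome mRNA only in part of its length. Its last 500 nt gave 4.11 to 6.14 in total and 1.69 to 2.81 in polysome mRNA, and at 1000 to 1499 nt the values were 3.10 to 4.52 and, in the 3 libraries with background cytosines there, 1.27 to 1.96. The highest window, 500 to 999 nt from the end, gave 23.9 to 30.5 and 28.4 to 66.0, with ranges that overlap. Olig1 (chr16:91269772-91271933, plus strand), a gene of 1 exon, differed in both directions, with 4.62 to 5.83 against 7.45 to 11.1 at 500 to 999 nt and 19.3 to 20.6 against 11.3 to 16.5 at 1000 to 1499 nt. Map2 (chr1:66175273-66442583, plus strand), with an mRNA of many kilobases, had, at 3500 to 3999 nt, 3.04 to 4.84 in total mRNA and 0.256 to 0.492 in the 3 polysome libraries with background cytosines there. At 500 to 999 nt from its end, the values were 4.01 to 4.33 and 0.606 to 1.32. Coverage in polysome mRNA was lower in both windows, while at 1500 to 1999 nt the ranges overlapped (0.713 to 3.33 and 0.743 to 2.28).

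Restricted to cytosines within 1000 nt of the 3′ end, an alternative chosen after seeing the data that left 4359 genes tested, Slc1a3 fell by 3.33 (SE 0.31), Map2 by 2.08 (SE 0.24), Olig2 by 2.02 (SE 0.36) and Stmn1 by 0.81 (SE 0.19) on the log2 scale, each with a limma adjusted p of at most 0.0126. Olig1 (0.47) and Tubb3 (0.61) did not pass, and Aldh1l1 was not tested there. In all, 4 of the 6 genes tested were called, beside 30.4% of all genes. Each library was scaled here to its median gene within that window. Over the library's median gene used above, Stmn1 had 8.49 to 10.5 in total and 6.57 to 8.66 in polysome mRNA, ranges that overlap. Olig1 had 5.72 to 6.85 and 9.89 to 15.2, and Tubb3 0.813 to 1.03 and 1.23 to 3.41. Slc1a3, Map2 and Olig2 were lower in polysome mRNA on that scale too. For Olig2 this held in the last 500 nt and not at 500 to 999 nt. In the latter it was at 2.60 to 3.28 in total mRNA and at 0.397, 3.09, 4.01 and 4.58 in pLF and pMF.

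**Figure D4:**
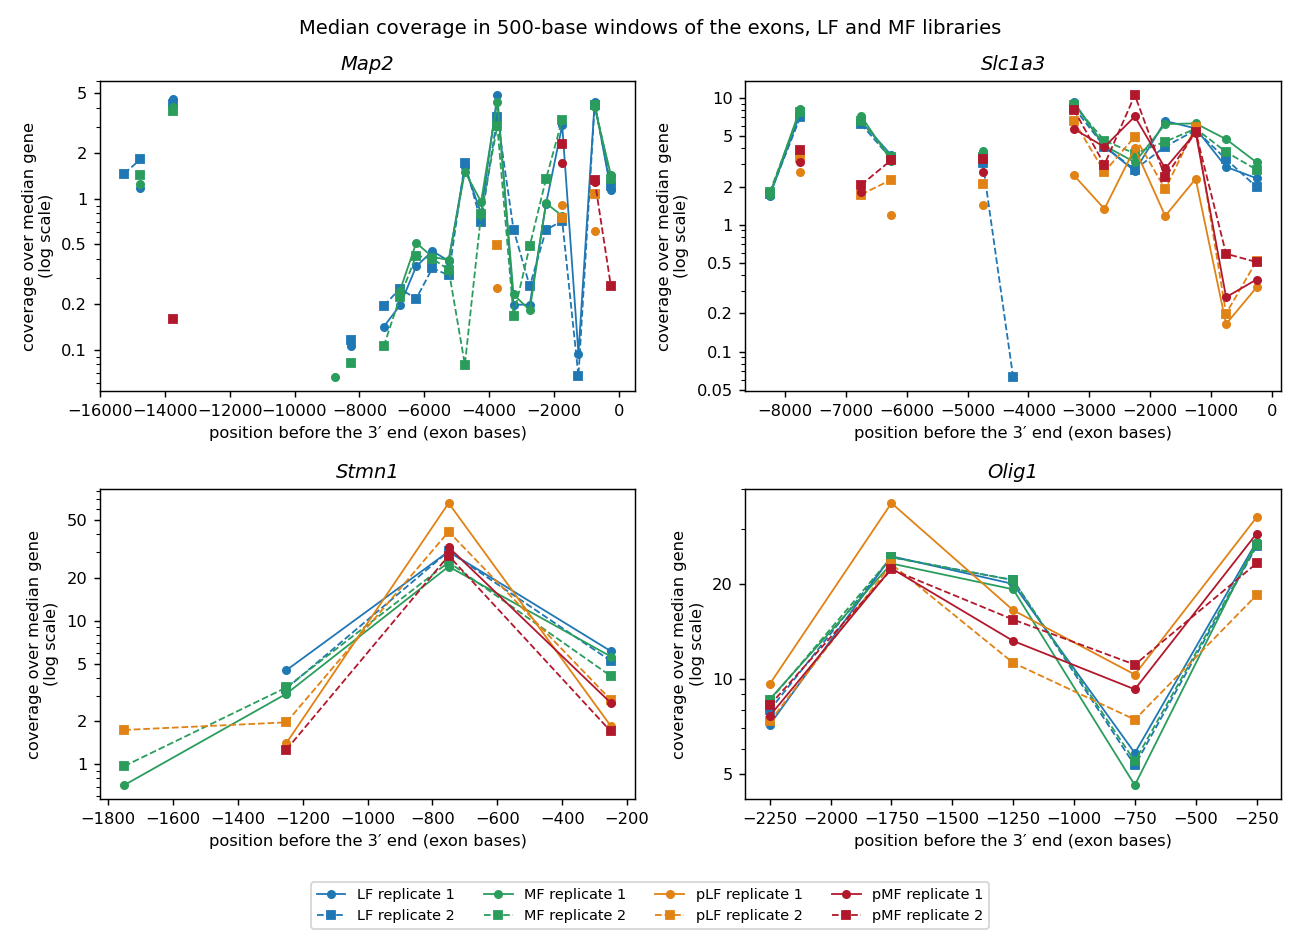
Scaled coverage (log axis) of Map2, Slc1a3, Stmn1 and Olig1 in windows of 500 nt along the merged exons, with the 3′ end at 0 on the right, in each LF, MF, pLF and pMF library; circles with solid lines are replicate 1, squares with dashed lines are replicate 2, and windows with fewer than 3 listed cytosines are not drawn. Slc1a3 is lower in polysome mRNA within 1000 nt of the 3′ end (0.165 to 0.590 against 1.98 to 4.72) and higher between 2000 and 2499 nt.

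Cytosines in introns were listed mostly in total mRNA. Map2 had 14 to 65 intronic background cytosines in LF and MF, Olig2 24 to 44, Slc1a3 13 to 29 and Stmn1 3 to 54. In pLF and pMF, Olig2 had 2 to 4 and the other 3 genes had 0. Over all genes, introns held 3.99% ± 0.262 of background cytosines in total and 2.20% ± 0.155 in polysome mRNA (SD, n = 4 each; exact two-sided permutation p = 0.0286, the smallest possible), and 15.9% ± 0.219 against 27.8% ± 0.738 of exonic cytosines lay within 1000 nt of the 3′ end in genes with long exon sequence (SD, n = 4 each; exact two-sided permutation p = 0.0286). These shares move with the fraction over the whole transcriptome, and their part in the differences of single genes was not tested.

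The folate comparisons ask whether the markers changed with the folic acid concentration. Between LF and MF, none of the 7 genes was called in total mRNA, beside 0% of all genes. By limma with Benjamini-Hochberg adjustment no gene passed, 186 genes had an unadjusted p under 0.05, and DESeq2 called 28 genes, none of them among the 7. The largest differences were -0.46 for Map2 (95% interval -1.56 to 0.63), 0.42 for Stmn1 (-0.16 to 0.99) and 0.38 for Tubb3 (-0.62 to 1.37) on the log2 scale. Olig1 was the steadiest of the genes, at 20.6 and 20.7 in LF and 20.2 and 21.2 in MF, a difference of 0.00 with an interval of -0.53 to 0.52.

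In polysome mRNA, no marker was called between pLF and pMF, beside 0.127% of all genes. Map2 was at 0.392 and 0.676 in pLF and at 1.25 and 1.15 in pMF, Slc1a3 at 1.38 and 2.19 against 2.96 and 3.10, Aldh1l1 at 0.751 and 0.463 against 1.07 and 1.00, and Olig2 at 3.44 and 3.14 against 2.18 and 2.04. The libraries of these 4 genes did not overlap, as for 32.5% of all genes, and the differences of -1.22, -0.80, -0.81 and 0.64 on the log2 scale had limma adjusted p of 0.525 to 0.617. Between pHF and pMF, no marker was called by limma, beside 0.0115% of all genes. Olig2 was at 3.86 and 3.11 in pHF, a difference of 0.72 (SE 0.24, limma adjusted p = 0.484) that DESeq2 called (0.78, adjusted p = 0.0392). Map2, at 0.512 and 0.540 in pHF, differed by -1.19, Aldh1l1 by -0.57 and Olig1 by -0.40, and with limma adjusted p of up to 0.753 none of these 3 was called. The libraries of these 4 genes did not overlap, as for 35.8% of all genes. Whether polysome and total mRNA differed more in LF than in MF was tested as an interaction, and none of the 7 genes was called, beside 0.0115% of all genes.

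In the libraries labelled HF, Olig1, Olig2 and Slc1a3 were lower than in MF. Olig1 was at 9.07 and 8.20 against 20.2 and 21.2 in MF and fell by 1.27 on the log2 scale (SE 0.23, limma adjusted p = 0.0155), or 2.40-fold. Olig2 was at 1.87 and 1.67 against 3.94 and 3.27 and fell by 1.02 (SE 0.24, limma adjusted p = 0.0351). In windows counted from the 3′ end, Olig2 was lower than in MF only in those within 1500 nt. At 1500 to 1999 nt it was higher, at 10.2 and 9.08 against 5.94 and 5.89. The ranges overlapped at 2000 to 2499 nt. Slc1a3 was at 1.73 and 2.15 against 4.68 and 4.35 and fell by 1.22 (SE 0.30, limma adjusted p = 0.0393). These were 3 of 7 genes, beside 7.08% of all genes called and 2.83% called lower. Stmn1 (-0.88, limma adjusted p = 0.0713) and Aldh1l1 (-0.84, 0.204) did not overlap with MF, as for 29.9% of all genes in this direction, but were not called, Tubb3 differed by 0.69 (0.400) and Map2 by -0.45 (0.640). Gfap, which was not tested, was at 0.173 and 0.220 in the libraries labelled HF, from 5 and 2 cytosines, and at 0.0610 in MF replicate 2 from 2 cytosines.

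Genes of the other marker lists were also called between these libraries and MF, beside the 7.08% of all genes. Of 16 astrocytic genes tested, Fgfr3 (1.72), named after its value was seen, was higher and none was lower, with a median of 0.05 and a summed level of 107.7 and 107.8 against 99.3 to 111.6 in LF and MF. Vim, which NSCs also express, made up most of this sum, and without it the list was at 33.2 to 35.3 against 31.0 to 35.7. None of 4 oligodendroglial genes tested was called, and the summed level of that list was 3.28 and 4.74 against 5.96 to 6.19. The summed scaled level of 15 fibroblast and mural cell genes reached 31.1 and 31.3 there and 14.8 to 17.7 in LF and MF, with 10 of the 15 genes measured and no background cytosine for Dcn, Rgs5, Anpep, Abcc9 and Kcnj8. Of the 6 tested, 2 were called, both higher than in MF, with a median of 0.93. They were Acta2 (smooth muscle actin), by 2.85 (SE 0.33, limma adjusted p = 0.00375), and the collagen gene Col3a1, by 1.77 (SE 0.46, limma adjusted p = 0.0456), which was named after its value was seen. Of 10 neuronal genes tested, 1 was called, Stmn3, a neuronal relative of stathmin, which was higher by 2.69 (SE 0.40, limma adjusted p = 0.00704), and the median was 0.00. The summed level of the 30 neuronal genes was 33.1 and 33.2 against 20.97 to 23.9, with Stmn3 alone at 7.02 and 8.35 against 1.18 to 1.60. Of 20 tubulins and microtubule proteins tested, Stmn3 was higher and 2 were lower, Tubb2a (-1.70) and Tuba1a (-1.66). Of 17 NSC genes tested, 3 were called. Fabp7, a fatty acid-binding protein of radial glia, was at 9.33 and 9.91 against 17.5 to 32.7 in LF and MF and fell by 1.24 from MF (SE 0.29, limma adjusted p = 0.0346), while the RNA-binding protein Msi1 (2.38) and the Notch target Hes5 (1.23) were higher. These 5 genes were named after their values were seen. The summed level of all NSC genes, 66.4 and 69.1, lay within the 59.9 to 76.0 of LF and MF, but without Fabp7 it was 56.5 to 59.7 against 42.0 to 44.0. Among the genes not called, Hes1, a Notch target like Hes5, was at 11.04 to 11.10 against 5.84 to 6.09 and differed from MF by 0.90 (limma adjusted p = 0.376), and the receptor Notch2 was at 3.43 to 3.51 against 1.60 to 2.05 (1.02, 0.289). Markers of other cell types were low in all total mRNA libraries, but their sums did not overlap either. The summed level of 12 microglia genes, of which 3 were measured and 2 tested and not called, was 1.94 to 3.65 against 0.780 to 1.32 in LF and MF. That of 10 endothelial genes was 0.332 to 0.370 against 0 to 0.0425, and that of 7 ependymal genes was 0.902 to 0.955 against 0.538 to 0.654, with 4 genes measured in each list and none tested. The part of these differences between the libraries in the values of Olig1, Olig2 and Slc1a3 was not tested. Without any 1 of the 4 libraries compared, none of the 3 kept its call (limma adjusted p = 0.0640 to 0.255), with differences of -0.89 to -1.38, and Olig2 and Slc1a3 also lost it without either LF replicate and Slc1a3 without either pMF replicate, which enter only through the shared spread.

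Between pHF and the libraries labelled HF, Olig2 (3.86 and 3.11 against 1.87 and 1.67) was higher by 0.97 (SE 0.24, limma adjusted p = 0.0279) and Stmn1 (6.11 and 8.80 against 4.05 and 3.56) was higher by 0.95 (SE 0.26, limma adjusted p = 0.0368). These were 2 of 7 genes, beside 13.8% of all genes called and 7.58% called higher. Slc1a3, lower in polysome than in total mRNA of LF and MF, was at 2.72 and 4.03 against 1.73 and 2.15 here (0.78, limma adjusted p = 0.112). Within 1000 nt of the 3′ end, scaled to the median gene of that window, the direction turned for Slc1a3 (-1.94, limma adjusted p = 0.0166). Stmn1 was not called there (-0.10, limma adjusted p = 0.846). Over the library's median gene, Stmn1 was at 6.14 to 8.99 in pHF and at 5.42 to 8.03 in the libraries labelled HF in that window. Without pHF replicate 2, Olig2 differed by 1.13 (limma adjusted p = 0.0367) and Stmn1 by 0.69 (0.150), without pHF replicate 1 Olig2 differed by 0.82 (0.0994), and without either library labelled HF neither gene passed. Leaving out either LF replicate, which enters only through the shared spread, also ended both calls (limma adjusted p = 0.0523 to 0.0612), and leaving out either MF replicate ended that of Olig2 (0.0515 and 0.0523). The interaction of this difference with that in LF and MF was called for 2 of the 7 genes, Olig2 (1.38) and Slc1a3 (1.65), beside 4.92% of all genes called and 2.11% called higher. By summed coverage, Map2 was lower by 3.88, and Olig1, Slc1a3 and Stmn1 were higher by 1.57, 1.32 and 1.34, each with a limma adjusted p of at most 0.00286, beside 48.8% of all genes. The difference of Olig2 was gone by this measure (0.01, limma adjusted p = 0.981), with scaled sums of 5.65 and 8.24 in pHF against 6.03 and 7.59. In windows counted from the 3′ end, Olig2 was higher in pHF only at 500 to 999 nt (4.25 to 6.37 against 1.29 to 1.51). The last 500 nt gave lower values in pHF (0.357 to 0.622 against 1.49 to 2.25). So did 1500 to 1999 nt (3.43 to 5.32 against 9.08 to 10.2) and 2000 to 2499 nt (2.83 to 3.33 against 3.92 to 5.74). The ranges overlapped at 1000 to 1499 nt. Olig2 had 169 and 170 background cytosines in pHF and 330 and 412 in the libraries labelled HF.

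Genes of the same lineages gave the setting for polysome against total mRNA in LF and MF, where 17.1% of all genes tested were called higher and 12.3% lower. With 5 of 10 neuronal, 5 of 16 astrocytic, 1 of 4 oligodendroglial, 7 of 20 microtubule and 8 of 17 NSC genes called, counts this small are given as a description. Among 30 neuronal genes, 20 were measured in at least 1 library and 10 were tested, of which 2 rose and 3 fell, with a median of -0.26 beside 0.06 over all genes. The interneuron transcription factors Dlx2 (-1.66) and Dlx1 (-1.38) and the adhesion molecule Ncam1 (-1.21) fell, and Gap43 (1.20) and Stmn3 (0.94), which were chosen after their values were seen, rose. Among 20 astrocytic genes, 16 were tested, 2 rose and 3 fell (median -0.38): the sodium pump subunit Atp1b2 (-2.17), the gap junction protein Gja1 (-2.11) and Sparcl1 (-0.97) fell, and Clu (1.11) and Vim (0.36) rose, Sparcl1 and Vim being named after their values were seen. Among 18 oligodendroglial genes, 8 were measured and 4 tested, and Sox8 (-1.07) fell.

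Of 26 tubulins and microtubule proteins, 20 were tested, 4 rose and 3 fell, with a median of -0.03. The alpha-tubulins Tuba1a (-1.51) and Tuba1c (-1.33) and the microtubule plus-end protein Mapre2 (-2.01) fell, and Stmn3 rose with the beta-tubulins Tubb2b (1.11), Tubb2a (0.86) and Tubb6 (0.56), which were named after their values were seen. Of the tubulins that were not called, Tuba1b differed by 0.75 (limma adjusted p = 0.115), Tubb4a by 0.24 (0.582), Tubb4b by -0.41 (0.145) and Tubb5 by -0.49 (0.0696), so that neither family moved as 1 group. Of 19 NSC genes, 17 were tested, 2 rose and 6 fell (median -0.11), among them the receptors Ptprz1 (-2.20), Egfr (-1.93) and Notch1 (-1.80). Of the 15 fibroblast and mural cell genes, 6 were tested and Tagln (1.91) and Pdgfrb (1.03) rose, and the list's summed level was 14.8 to 17.7 in total and 18.2 to 27.6 in polysome mRNA. Of 12 microglia genes, 2 were tested and neither was called, and no gene of the endothelial or ependymal lists could be tested. No gene of these lists was called between LF and MF, pLF and pMF or pHF and pMF, and pHF was not compared with pLF.

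The genes whose scaled log2 levels followed each marker most closely over the 12 libraries are given as a description, since the libraries share groups and fractions. For Tubb3 they were Slc35e4 (r = 0.928) and Ocrl (0.907), for Map2 Terf2 (0.843) and Plbd2 (0.826), and for Stmn1 Ubr7 (0.892) and the replication gene Mcm6 (0.877). Aldh1l1 was followed by Rock2 (0.933), Olig1 by Tfdp1 (0.944) and Taf10 (0.941), Olig2 by the replication gene Mcm10 (0.909) and Atp5l (0.896), and Slc1a3 by the clathrin heavy chain Cltc (0.946) and Naa15 (0.944). Without the libraries labelled HF, the correlation of Stmn1 with Mcm6 was 0.482 and that with Ubr7 0.681, while the other pairs given here stayed between 0.774 and 0.973. Among the markers themselves, Stmn1, Olig1 and Olig2 had pairwise r of 0.659 to 0.681, and Tubb3 had an r between -0.43 and -0.08 with each of the other 6.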

How the data were processed

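RNA BS-seq was measured in 12 libraries, 2 biological replicates of each of 6 groups, grouped by their labels. The authors' steps were fastp for trimming, meRanGh for unique alignment (mm10), meRanCall for cytosines covered by at least 10 reads, and meRanAnnotate for gene names. The deposited counts are the reads over each cytosine and the unconverted reads, not normalized between libraries. The deposited level is a fraction, made by the authors as unconverted over C and T reads. The lists precede the authors' filters on reads, signal over noise and structure. The processing notes also name R 4.1.1.

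Variant cytosines were not used. Per gene and library, the median coverage of background cytosines (level under 0.05) was divided by the library's median over the genes tested. Alternative summaries of a gene's coverage were scaled by their own median. Genes with at least 5 such cytosines in every library were tested on the log2 scale with limma 3.58.1 in R 4.3.3 (6 group means, trended variance, Benjamini-Hochberg over 8684 genes, threshold 0.05). Because counts are coverages of overlapping reads and not reads per gene, edgeR 4.0.16 and DESeq2 1.42.0 on rounded median coverage served as alternatives. Single values were compared with scipy 1.17.1 and figures drawn with matplotlib 3.10.9. Features came from GENCODE vM21. The limma model was tested on simulated data, for the comparison of polysome with total mRNA in LF and MF only. Depth was 1186213013 to 2857966129 in summed coverage per library. Intervals are 95%, from limma for log2 differences and by the Wilson method for the levels of called cytosines.

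The members and lists were chosen with earlier results of these data known. Named genes are the members, the 2 genes most correlated with each, up to 3 called genes of each list with the largest difference between fractions, up to 2 per folate comparison, and called cytosines present in both replicates of a group; 1 of these genes is not reported here. Alternatives covered scaling, level ceiling, exons only, shared cytosines, minimum numbers, pseudocount, variance trend, a replicate block and leaving out libraries. With 2 replicates, p-values measure the spread between these samples.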

Additional observations from a re-analysis of the deposited data

Results flagged for a closer look

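Slc1a3 and Olig2 were singled out because their difference between polysome and total mRNA was not the same in the libraries labelled HF and pHF as in LF and MF. For Slc1a3, the difference was 0.78 with these libraries and -0.87 in LF and MF, and the interaction was 1.65 on the log2 scale (SE 0.37, limma adjusted p = 0.0365). For Olig2, it was 0.97 against -0.41, and the interaction was 1.38 (SE 0.30, limma adjusted p = 0.0316). These were 2 of the 7 genes tested, beside 4.92% of all genes. DESeq2 also called Olig1 (0.94) and Stmn1 (1.22), while with no level ceiling or no variance trend neither Slc1a3 nor Olig2 was called, and within 1000 nt of the 3′ end only Olig2 was (3.47). Without either library labelled HF, neither gene passed (limma adjusted p = 0.0688 to 0.113), and without pHF replicate 2 the values were 1.36 for Slc1a3 and 1.54 for Olig2 (limma adjusted p = 0.0994 and 0.0534). Without pHF replicate 1, Slc1a3 passed (1.93, limma adjusted p = 0.0297) and Olig2 did not (1.23, 0.0537). Leaving out any LF, MF or pMF library also ended both calls, and leaving out either pLF library ended neither. Both interactions rest on the 2 libraries labelled HF, which stood apart from LF and MF, and the part of that difference in these values was not tested.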

How the results depend on the processing

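Counts are of the 7 markers tested. For polysome against total mRNA in LF and MF, 2 were called, and 4 with TMM factors, with the upper quartile, within 1000 nt of the 3′ end, by edgeR and by DESeq2, and 6 with mean and with summed coverage. Stmn1 turned to 0.39 with mean and 1.03 with summed coverage. Leaving out 1 library gave 0 to 2. TMM factors moved the median difference of all genes from 0.06 to -0.11 and the genes called higher from 1483 of 2553 to 1161 of 2573, and 4512 genes were called with mean and 5114 with summed coverage, 4075 with the upper quartile, 1659 without MF replicate 1, 1323 of 4359 within 1000 nt of the 3′ end and 874 of 1177 with cytosines listed in all 12 libraries. Over all alternatives, the count of all genes called went from 1196 to between 553 and 4235 for pHF against the libraries labelled HF, from 615 to between 40 and 2271 for these against MF and from 427 to between 61 and 2050 for the interaction with them. DESeq2 called 28 genes between LF and MF, 167 between pLF and pMF, 156 between pHF and pMF and 44 for the interaction in LF and MF, where limma called 0, 11, 1 and 1. Between pHF and the libraries labelled HF, the 2 calls became 1 with TMM factors, no level ceiling, edgeR or no variance trend and 4 with summed coverage. Olig2 was not among these 4, and its difference went from 0.97 to 0.01. Within 1000 nt of the 3′ end, scaled to the median gene of that window, Slc1a3 turned to -1.94 in this comparison, and Stmn1 was at -0.10 and was not called. Leaving out 1 library gave 0 to 2. Between the libraries labelled HF and MF, the 3 calls became 5 with mean coverage, 1 with no level ceiling or no variance trend and 0 within 1000 nt of the 3′ end, and leaving out 1 library gave 0 to 4. For the interaction with these libraries, the 2 calls became 0 with no level ceiling or no variance trend, 1 within 1000 nt of the 3′ end and 4 by DESeq2, and leaving out 1 library gave 0 to 2. DESeq2 called 1 marker between pHF and pMF, where limma called 0. Among the 3 other folate comparisons and interactions, none of the alternatives run called a marker. Of the 20 called cytosines, 7 were left at a coverage of 50, 5 at a level of 0.2 and 4 with 10 unconverted reads. The causes were not tested. Summed coverage, the 3′ window, cytosines naming 1 gene and leaving out 3 libraries together were chosen after seeing the data.

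Replicate numbers did not pair the libraries: deviations of libraries with the same number correlated at -0.06 to 0.03 over 15 pairs of groups. With the replicate number as a block, 1 marker in place of 2 was called between polysome and total mRNA in LF and MF, since Tubb3 no longer passed (limma adjusted p = 0.0566), and 2459 genes instead of 2553, and no other count of markers changed.

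Low coverage limits what can be seen. Cytosines need an unconverted read to be listed, so that the median of a weakly covered gene such as Map2 in polysome mRNA rests on its better covered positions, and a fall in it can be understated.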
